A study of Mus musculus with 6 samples.

Results

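The endocannabinoid enzyme genes are 10 genes that encode the enzymes making and breaking the lipid messengers 2-arachidonoylglycerol (2-AG) and the N-acylethanolamines (NAEs), of which anandamide is the best known. They were taken by symbol from 53953 rows per library, and each symbol matched 1 row. The list was drawn up with the values of these libraries known, the level of Abhd6 among them, so the difference of each of these genes between the groups, calls included, is given as a description that supports nothing. The libraries came from organoids that were derived from the proximal part of the small intestine of C57BL/6 wt mice and grown in Matrigel at passage 3 to 5. One group had been given arachidonic acid (3 libraries), and the other had received the ethanol vehicle (3 libraries). In both groups the treatment lasted 3 days and was followed by a passage, and ethanol is listed at 0.1% for all 6 libraries. RNA was collected on day 3 after the passage. The labels state no dose of arachidonic acid. They also do not tell whether the replicates stem from different cultures or mice, so p-values measure only how far these libraries differ among themselves, which may be technical.

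Both messengers carry an arachidonoyl chain or a related acyl chain and are made on demand from membrane lipids. Diacylglycerol lipases release 2-AG from diacylglycerol, and monoacylglycerol hydrolases split it into glycerol and arachidonic acid. NAEs are cut from N-acylated phosphatidylethanolamine (NAPE), either directly by a phospholipase D or through deacylated intermediates, and amidases then split them into ethanolamine and a fatty acid. Arachidonic acid is therefore both a building block and a breakdown product of the system. In the gut, endocannabinoids and NAEs are known for effects on motility, food intake and the epithelial barrier.

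The promoters of the genes that differed between the groups are shown so that their sequence can be read beside the values. RefSeq windows on GRCm38.p6, from 250 bases before to 50 bases after an annotated start, matched 8 of the 10 genes in 11 windows, and Abhd12 and Dagla were not matched. The capitals mark matches, on either strand, to the motifs named after the sequences, and where a gene has 2 windows the upstream one is given.
Abhd6 (chr14:8002638-8002937, plus strand): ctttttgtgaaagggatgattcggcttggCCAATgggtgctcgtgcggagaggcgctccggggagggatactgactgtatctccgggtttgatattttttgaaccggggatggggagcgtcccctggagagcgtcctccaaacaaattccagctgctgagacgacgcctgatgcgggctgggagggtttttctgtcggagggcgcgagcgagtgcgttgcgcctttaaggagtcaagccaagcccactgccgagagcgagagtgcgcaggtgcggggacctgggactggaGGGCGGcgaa
Abhd4 (chr14:54253879-54254178, plus strand): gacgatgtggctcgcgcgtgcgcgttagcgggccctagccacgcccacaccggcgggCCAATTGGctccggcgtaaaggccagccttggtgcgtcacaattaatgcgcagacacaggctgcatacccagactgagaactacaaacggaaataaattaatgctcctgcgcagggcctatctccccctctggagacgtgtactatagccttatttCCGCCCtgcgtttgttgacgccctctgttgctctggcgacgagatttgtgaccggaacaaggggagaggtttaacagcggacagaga
Napepld (chr5:21701573-21701872, minus strand): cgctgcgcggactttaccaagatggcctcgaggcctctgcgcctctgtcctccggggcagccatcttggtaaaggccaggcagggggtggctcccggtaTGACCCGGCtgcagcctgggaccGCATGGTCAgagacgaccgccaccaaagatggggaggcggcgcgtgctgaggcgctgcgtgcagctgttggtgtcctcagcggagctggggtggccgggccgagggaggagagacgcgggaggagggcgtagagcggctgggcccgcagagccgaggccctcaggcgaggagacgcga
Faah (chr4:116017875-116018174, minus strand): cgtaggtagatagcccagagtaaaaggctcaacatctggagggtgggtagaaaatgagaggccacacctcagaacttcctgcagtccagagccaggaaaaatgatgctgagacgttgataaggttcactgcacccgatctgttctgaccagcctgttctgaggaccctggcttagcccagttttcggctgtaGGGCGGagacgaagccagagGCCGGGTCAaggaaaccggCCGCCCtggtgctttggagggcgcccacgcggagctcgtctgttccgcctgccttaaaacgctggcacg

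Of the motifs searched on both strands, the GC box GGGCGG occurred in 9 of the 11 windows, of 6 genes, and in 35.7% of 32851 windows of all genes. The 2 windows of Abhd6 share 222 bases and the same GC box. The 11 windows had 51.0% to 72.3% G and C, against a median of 52.7% over all windows. CCAAT occurred in 4 windows, those of Abhd6, Abhd4, Gde1 and Naaa, against 37.4% of all windows. The core of the antioxidant response element, TGACNNNGC, occurred in 3, those of Faah, Napepld and Naaa, against 12.4%. The peroxisome proliferator response element, taken as 2 copies of AGGTCA in the same direction with 1 base of any kind between them, occurred in none, against 0.0396%. The hexamer AGGTCA alone, which lies within it, occurred in that of Gde1 alone, against 16.3%. The E-box CACGTG occurred in 1 window, of Mgll (7.15% of all), GGAATG in that of Daglb (14.7%), and TATAAA in none (13.6%). These are matches of letters in a short window and say nothing of binding.

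The values are FPKM, fragment counts scaled to gene length and library depth, and the depth was 50.8 M, 35.6 M and 48.6 M fragments in arachidonic acid replicates 1, 2 and 3, and 36.6 M to 38.5 M in the vehicle libraries. The libraries of arachidonic acid did not form a tight group. The median chi-square per gene between the recovered fragments of 2 libraries was 19.7 and 18.1 for replicate 1 against replicates 2 and 3, 3.03 for replicate 2 against 3, and 3.00 to 4.28 between vehicle libraries. The differences of the tested enzyme genes are therefore also given without arachidonic acid replicate 1, and those of other genes where its removal changed the call. Where an enzyme gene differs, the place of that library is given as a position on the FPKM scale. On it, 0 is the average of the vehicle libraries and 1 is the average of the other 2 arachidonic acid libraries. Its median over 3052 genes past the test with a log2 difference of at least 0.5 was 0.58.

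Epithelial identity was checked on markers of the tissue. All 6 epithelial markers, Epcam and Cdh1 among them, were present, with sums of 4271 to 5171 FPKM with arachidonic acid and 2844 to 2970 FPKM with vehicle (3 higher, 1 lower), and 18 markers of immune cells, fibroblasts, endothelium, neurons and glia were at or near 0. These summed to 1.72 to 2.47 FPKM in the arachidonic acid libraries and 1.12 to 1.88 FPKM in the vehicle libraries, with Lum and Cdh5 among those listed at 0 in all 6. Markers of the epithelial lineages differed between the groups in the limma test over all genes described below (adjusted p under 0.05). That test called 20.8% of all tested genes higher and 19.4% lower, and the marker counts are to be read beside these shares. All 4 enteroendocrine markers were lower, with sums of 89.8 to 124 FPKM with arachidonic acid and 432 to 512 FPKM with vehicle. Among them is a gene at 0.0824 to 0.83 FPKM with arachidonic acid and 2.6 to 3.3 FPKM with vehicle. It reached the average of 1 FPKM needed for the test only through the vehicle libraries, so its call is no support. Also lower were 3 of 4 Paneth cell markers (283 to 494 against 1156 to 1891 FPKM) and all 3 goblet cell markers that could be tested of 4 (223 to 365 against 762 to 930.5 FPKM). The other one, Muc2, averaged under 1 FPKM across the libraries, which kept it out of the test. It had 0.629, 0 and 0.385 FPKM with arachidonic acid and 1.15, 2.45 and 0.424 FPKM with vehicle. Of 4 stem cell markers 1 was higher and 2 were lower (227 to 288 against 454 to 527 FPKM). The lower sum came from those 2. The higher marker had 26.7 to 43.4 against 9.65 to 12.85 FPKM, and the one that did not pass had 67.05 to 80.5 against 73.2 to 90.1 FPKM. Of 4 enterocyte markers 2 were higher and 2 lower (1706 to 4346 against 597 to 799.5 FPKM). The higher sum came from Fabp1 (1617 to 4094 against 313 to 412 FPKM), and the other 3 summed to 88.4 to 252 FPKM with arachidonic acid and 284 to 388 FPKM with vehicle. These 3 did not move together. The second higher marker is among them, at 71.3 to 112 FPKM with arachidonic acid and 21.9 to 29.05 FPKM with vehicle, and the 2 lower ones outweighed it in that sum. The only tested marker of 4 for tuft cells did not pass (1.99 to 7.94 against 1.96 to 2.91 FPKM for the sums). In these bulk libraries fewer cells of a type and less RNA per cell cannot be told apart, and the part of such shifts in the values below was not tested.

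Arachidonic acid organoids held more transcript of Abhd6, Abhd12, Abhd4 and Napepld and less of Faah than vehicle organoids, while the libraries of the groups overlapped for Dagla, Daglb, Naaa, Gde1 and Mgll. Differences were fitted with limma on log2(FPKM + 1) over the 12913 genes that averaged 1 FPKM or more across the libraries, as 9 of the 10 genes did, Mgll being below it. As a description, 4 of these 9 were on the higher and 1 on the lower side of a Benjamini-Hochberg adjusted p of 0.05, where 40.2% of all tested genes were called, 20.8% higher and 19.4% lower. The libraries of the groups did not overlap for the same 5 genes, and for 55.0% of all tested genes (27.6% higher and 27.5% lower). The median log2 fold change was 0.12 over the 9 genes and -0.03 over all tested genes. Since these values were known when the genes were chosen, nothing is read from the counts. Without arachidonic acid replicate 1 the counts were again 4 and 1, where 59.8% of all tested genes were called.

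**Figure D1:**
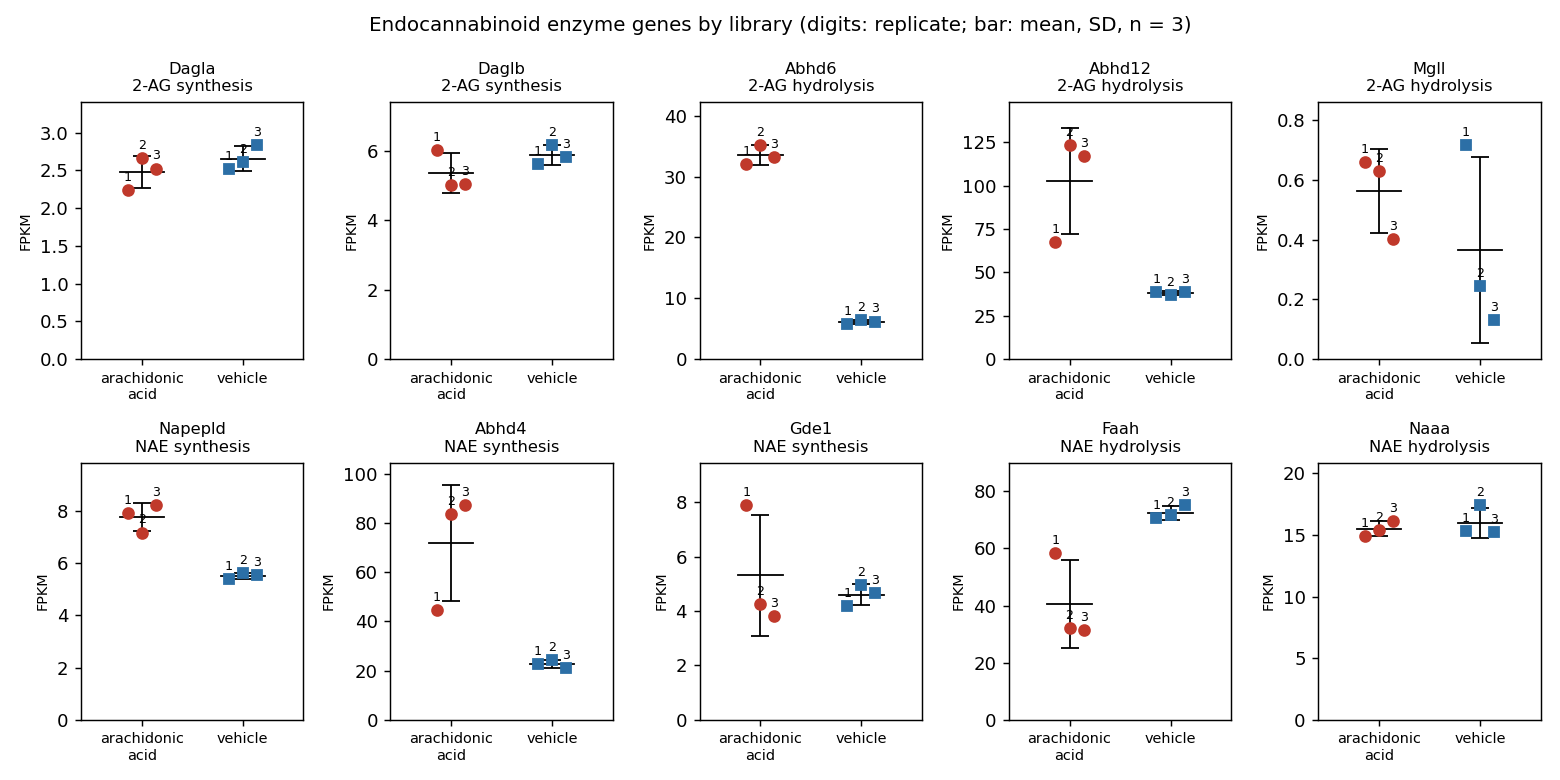
FPKM of the 10 enzyme genes in each library, with arachidonic acid libraries as red circles and vehicle libraries as blue squares, digits for the replicate, and black bars for the mean and SD (n = 3 per group). Abhd6 stands at 32.1 to 35.3 FPKM with arachidonic acid and at 5.69 to 6.46 FPKM with vehicle, and in the panels of Abhd12, Abhd4 and Faah replicate 1 of arachidonic acid lies between the vehicle libraries and the other replicates.

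Synthesis of 2-AG rests on the diacylglycerol lipases alpha and beta, encoded by Dagla and Daglb. Dagla (ENSMUSG00000035735), the main source of 2-AG in neurons, had 2.25, 2.66 and 2.53 FPKM in the arachidonic acid libraries and 2.51, 2.61 and 2.84 FPKM in the vehicle libraries. The groups overlapped, and the log2 fold change was -0.07 (SE 0.11, 95% interval -0.34 to 0.19), or -0.02 without arachidonic acid replicate 1. Daglb (ENSMUSG00000039206), the form that prevails in many peripheral cells, had 6.01, 5.02 and 5.04 FPKM with arachidonic acid and 5.63, 6.17 and 5.82 FPKM with vehicle. Its groups overlapped too, at a log2 fold change of -0.12 (SE 0.10, 95% interval -0.36 to 0.13), or -0.19 without that library. The intervals leave room for a modest fall or rise of either gene, and a change of the size seen for Abhd6 lies outside both. Summed, the 2 genes stood at 8.26, 7.68 and 7.57 FPKM with arachidonic acid and at 8.14, 8.78 and 8.66 FPKM with vehicle. The annotated exons of Daglb share 24.1% of their bases with Rac1 on the opposite strand, and since the counting is not stated to use strand, its values are uncertain.

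Among the genes for 2-AG hydrolysis was the one with the largest difference of the 10, Abhd6. Abhd6 (ENSMUSG00000025277) encodes a membrane-bound monoacylglycerol hydrolase of the alpha/beta-hydrolase family that faces the cytosol. It had 32.1, 35.3 and 33.2 FPKM in the arachidonic acid libraries and 5.69, 6.46 and 6.17 FPKM in the vehicle libraries. Every arachidonic acid library was far above every vehicle library, and the 3 lay close together. The means were 33.5 ± 1.60 FPKM with arachidonic acid and 6.11 ± 0.389 FPKM with vehicle (SD, n = 3 each), a ratio of 5.49 and a log2 fold change of 2.28 (SE 0.08). Replicate 1 lay at position 0.92, near the other 2, and without it the log2 fold change was 2.31.

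Abhd12 (ENSMUSG00000032046) encodes a second hydrolase of the family, whose active site faces away from the cytosol and which also degrades lysophosphatidylserine. It had 67.6, 124 and 117 FPKM with arachidonic acid and 38.7, 37.0 and 38.6 FPKM with vehicle. All arachidonic acid libraries were higher, but replicate 1 was only at position 0.36. The mean was 103 ± 30.6 FPKM with arachidonic acid and 38.1 ± 0.967 FPKM with vehicle (SD, n = 3 each), and the log2 fold change was 1.36 (SE 0.22), against 1.63 (SE 0.06) without replicate 1.

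Mgll (ENSMUSG00000033174) encodes monoacylglycerol lipase, the dominant 2-AG hydrolase of brain. Here it was the lowest of the 10 genes, at 0.661, 0.629 and 0.403 FPKM with arachidonic acid and 0.718, 0.245 and 0.131 FPKM with vehicle. These values stand for 60, 40 and 35 fragments with arachidonic acid and 48, 16 and 9 with vehicle. The groups overlapped, with vehicle replicate 1 the highest of all, and the mean over the 6 libraries, 0.464 FPKM, kept the gene out of the test. With no filter its log2 fold change was 0.22 (SE 0.17), and 3.29% of its annotated exon bases are shared with an antisense gene, Gm26588.

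Set beside each other, the 3 hydrolase genes stood in different proportions in the groups. Their summed level was 100.3, 160 and 151 FPKM in the arachidonic acid libraries and 45.1, 43.7 and 44.9 FPKM in the vehicle libraries. Abhd6 made up 32.0%, 22.1% and 22.1% of the sum with arachidonic acid and 12.6%, 14.8% and 13.7% with vehicle. Abhd12 held most of the rest in every library, 67.4%, 77.5% and 77.7% with arachidonic acid and 85.8%, 84.7% and 86.0% with vehicle, and Mgll held at most 1.59%. The share of Abhd6 did not overlap between the groups and was highest in arachidonic acid replicate 1, where Abhd6 was nearly as high as in replicates 2 and 3 and Abhd12 was not. Shares depend on the gene length behind the FPKM. With the union of annotated exons in its place, a choice made after seeing the data, Abhd6 held 47.1%, 34.9% and 34.8% with arachidonic acid and 21.4%, 24.7% and 23.1% with vehicle.

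**Figure D2:**
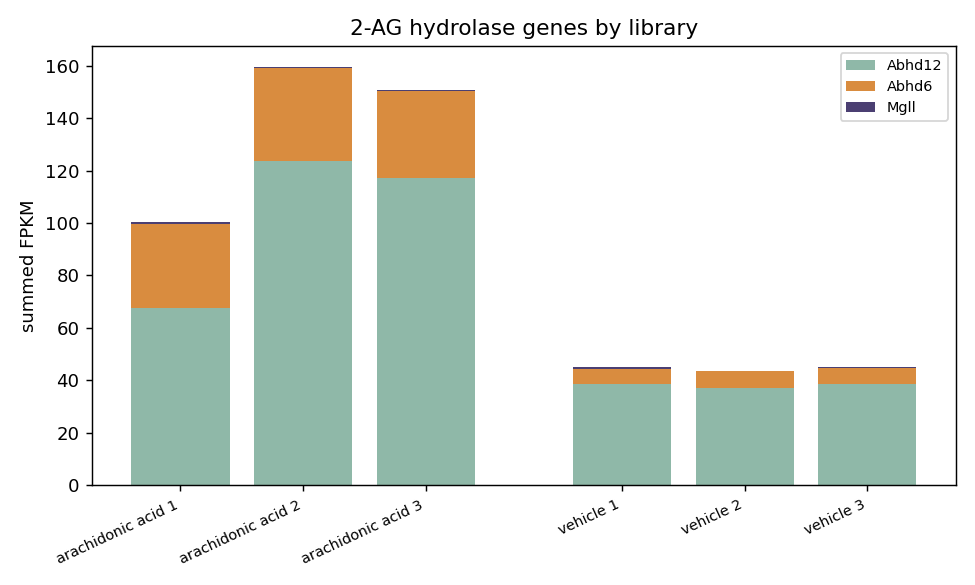
Summed FPKM of the 2-AG hydrolase genes Abhd12, Abhd6 and Mgll in each library, stacked by gene, with the arachidonic acid libraries on the left and the vehicle libraries on the right. The sums are 100.3 to 160 FPKM with arachidonic acid and 43.7 to 45.1 FPKM with vehicle, and the part of Mgll is barely visible.

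Among the genes for NAE synthesis 2 were higher and 1 did not pass, beside 20.8% of all tested genes called higher. This count is a description, since the genes were chosen with these values known. Napepld (ENSMUSG00000044968) encodes the phospholipase D that releases NAEs from NAPE in a single step. It had 7.93, 7.18 and 8.22 FPKM with arachidonic acid and 5.39, 5.61 and 5.57 FPKM with vehicle. The groups did not overlap, but the difference was the smallest of the 5 called genes, with means of 7.78 ± 0.535 FPKM with arachidonic acid and 5.52 ± 0.119 FPKM with vehicle (SD, n = 3 each) and a log2 fold change of 0.43 (SE 0.09). It was 0.41 without replicate 1, which lay at position 1.10.

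Abhd4 (ENSMUSG00000040997) encodes the hydrolase that strips acyl chains from NAPE at the start of the alternative route. The gene had 44.6, 83.5 and 87.1 FPKM with arachidonic acid and 22.7, 24.3 and 21.2 FPKM with vehicle. All arachidonic acid libraries were higher, with replicate 1 at position 0.35. Means were 71.7 ± 23.6 FPKM with arachidonic acid and 22.7 ± 1.53 FPKM with vehicle (SD, n = 3 each), a ratio of 3.16. The log2 fold change was 1.56 (SE 0.25) with all libraries and 1.86 (SE 0.07) without replicate 1.

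Gde1 (ENSMUSG00000033917) encodes a glycerophosphodiesterase that completes that route by releasing the NAE. It had 7.89, 4.25 and 3.81 FPKM with arachidonic acid and 4.19, 4.97 and 4.66 FPKM with vehicle. A single library stood out, arachidonic acid replicate 1, with 368 fragments, while the other 2 arachidonic acid libraries lay within or below the vehicle range. The log2 fold change was 0.12 (SE 0.23, 95% interval -0.44 to 0.67) with all libraries and -0.16 (SE 0.11) without replicate 1, so its direction rested on that library. Of its annotated exon bases 13.5% are shared with Gm45236 on the opposite strand.

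Hydrolysis of NAEs is shared by a fatty acid amide hydrolase and an acid amidase of the lysosome. Faah (ENSMUSG00000034171), which encodes the amide hydrolase that ends anandamide signalling, was the highest of the 10 genes with vehicle. It had 58.4, 32.0 and 31.5 FPKM with arachidonic acid and 70.5, 71.7 and 75.0 FPKM with vehicle. All arachidonic acid libraries were lower, with replicate 1 nearest to the vehicle libraries at position 0.34. The means were 40.7 ± 15.4 FPKM with arachidonic acid and 72.4 ± 2.34 FPKM with vehicle (SD, n = 3 each), a ratio of 0.561, and the log2 fold change was -0.88 (SE 0.23), against -1.16 (SE 0.06) without replicate 1. Of the 5 genes it is the one whose place in that count depended on the libraries, since it is counted with all 6 and without arachidonic acid replicate 1, and is not when any other library is left out. Its log2 fold change was then -0.90, -0.88 and -0.85 with vehicle replicate 1, 2 or 3 removed, and -0.74 and -0.73 with arachidonic acid replicate 2 or 3 removed.

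Naaa (ENSMUSG00000029413) encodes the acid amidase, which prefers palmitoylethanolamide. The gene had 14.9, 15.4 and 16.2 FPKM with arachidonic acid and 15.4, 17.4 and 15.3 FPKM with vehicle. These ranges overlapped, and the log2 fold change was -0.04 (SE 0.08, 95% interval -0.23 to 0.15), or -0.02 without arachidonic acid replicate 1.

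The genes for making and splitting NAEs can be set against each other within a library. The ratio of Napepld to Faah FPKM was 0.136, 0.225 and 0.261 in the arachidonic acid libraries and 0.0764, 0.0783 and 0.0742 in the vehicle libraries. These did not overlap, which follows from the values of the 2 genes above and adds no support. By union exon length the ratio was 0.440, 0.729 and 0.846 with arachidonic acid and 0.248, 0.254 and 0.241 with vehicle. A change of length multiplies the ratio by the same factor in every library, so it cannot alter the overlap. Faah exceeded Napepld in all 6 libraries on both scales.

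**Figure D3:**
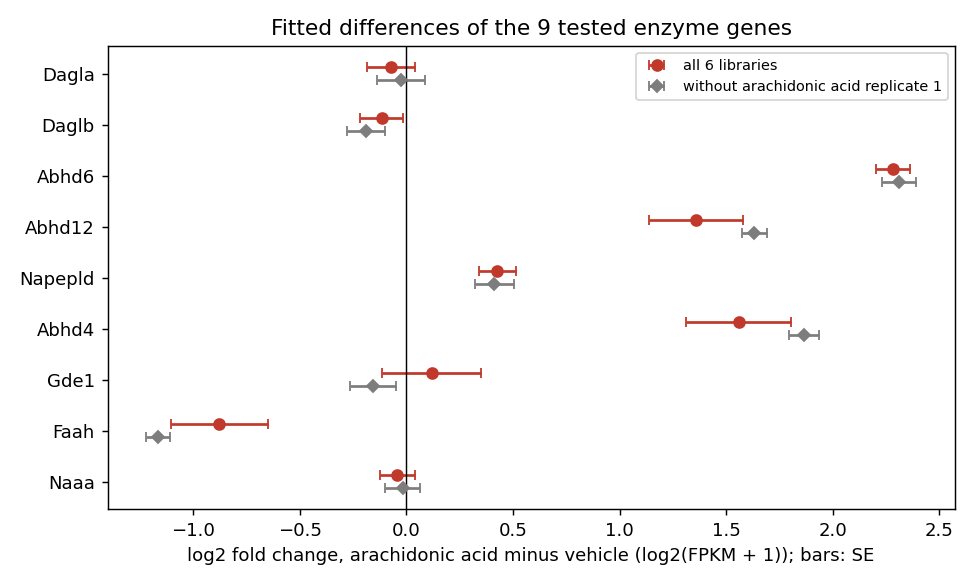
Log2 fold change, arachidonic acid minus vehicle on log2(FPKM + 1), of the 9 tested enzyme genes with all 6 libraries (red circles) and without arachidonic acid replicate 1 (grey diamonds), with bars for the standard error. Abhd6 lies at 2.28 and 2.31, the values of Abhd12, Abhd4 and Faah move away from 0 without that library, and Gde1 crosses 0.

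The order of the 10 genes by FPKM differed between the groups. With arachidonic acid it ran Abhd12 (103 FPKM), Abhd4 (71.7), Faah (40.7), Abhd6 (33.5), Naaa (15.5), Napepld (7.78), Daglb (5.36), Gde1 (5.32), Dagla (2.48) and Mgll (0.564). With vehicle it ran Faah (72.4 FPKM), Abhd12 (38.1), Abhd4 (22.7), Naaa (16.0), Abhd6 (6.11), Daglb (5.87), Napepld (5.52), Gde1 (4.61), Dagla (2.65) and Mgll (0.365). Neighbours whose libraries overlapped were Abhd12 and Abhd4, Abhd4 and Faah, Faah and Abhd6, and Daglb and Gde1 with arachidonic acid, and only Abhd6 and Daglb with vehicle. By fragments per kilobase of annotated exon, Abhd12 again came first with arachidonic acid, Abhd6 ranked 2 there and 6 with vehicle, and Faah ranked 4 with arachidonic acid and first with vehicle. Measured without regard to length, the genes held from 9 fragments in a library (Mgll) to 6950 (Faah).

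On the log2(FPKM + 1) scale, the genes whose pattern over the 6 libraries was most like that of Abhd6 were Rhof, Emp1, Rbms1, AA986860 and Ccdc141. Likeness was the root mean square difference in log2(FPKM + 1), each gene set to its own vehicle mean, over 9942 genes averaging 5 FPKM or more, and was 0.13, 0.14, 0.14, 0.16 and 0.18 for the 5. Emp1, an epithelial membrane protein gene, had 57.6, 82.1 and 71.5 FPKM with arachidonic acid and 13.4, 13.9 and 15.7 FPKM with vehicle. Rhof, a small GTPase gene, had 8.32, 9.68 and 10.6 FPKM with arachidonic acid and 0.887, 1.11 and 1.51 FPKM with vehicle. All of them but Emp1 were under 5 FPKM with vehicle and reached that minimum through the arachidonic acid libraries. The likeness also rests on the pseudocount, since with 0.1 the log2 fold change was 2.94 for Rhof and 2.44 for Abhd6. The measure uses the difference between the groups and is a description.

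The rest of the pathway was followed in 66 genes, of which 42 were tested. Among them 17 were higher and 8 lower in limma at an adjusted p under 0.05, against the 20.8% and 19.4% of all tested genes, and the median log2 fold change was 0.18. Of the 42, 3 (Ptgs2, Ces1g and Plcg2) lay below 1 FPKM in vehicle organoids and reached the filter through their arachidonic acid values, and all 3 are among the 17. Leaving them out, a choice made after seeing the data, 14 of 39 were higher and 8 lower, with a median of 0.07. Without arachidonic acid replicate 1, 19 were higher and 14 lower, and 5 were lower without vehicle replicate 1 or without arachidonic acid replicate 3. The lists were chosen with earlier results of these libraries known.

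Receptors for endocannabinoids at the cell surface were nearly absent. Cnr1 and Cnr2, the cannabinoid receptors, averaged 0.0174 and 0.0828 FPKM with arachidonic acid and 0.0913 and 0.0282 FPKM with vehicle. Gpr55, Gpr18, Gpr119, Trpv2 and Trpv4 were under 1 FPKM in every library, and Trpv1 was listed at 0 in all. The nuclear receptors that bind fatty acids and their ethanolamides were expressed. Ppard averaged 53.3 ± 15.9 FPKM with arachidonic acid and 14.8 ± 0.616 FPKM with vehicle (log2 fold change 1.74, SE 0.22, limma adjusted p = 0.0024). Pparg averaged 51.5 ± 12.2 FPKM with arachidonic acid and 23.8 ± 1.38 FPKM with vehicle (log2 fold change 1.05, SE 0.17, limma adjusted p = 0.0053). Ppara, at 9.72 ± 3.10 FPKM with arachidonic acid and 12.2 ± 0.374 FPKM with vehicle, did not pass (log2 fold change -0.34, SE 0.20, limma adjusted p = 0.20), but was called lower once arachidonic acid replicate 1 was removed (-0.56 on the log2 scale, limma adjusted p = 0.0025).

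Of 4 tested among 9 other genes of NAE metabolism 2 were higher and 1 lower in limma, beside 20.8% and 19.4% of all tested genes. Asah1, the acid ceramidase gene and the closest relative of Naaa, averaged 116 ± 12.9 FPKM with arachidonic acid and 71.0 ± 2.25 FPKM with vehicle (log2 fold change 0.69, SE 0.09, adjusted p = 0.0026). Gdpd1, which encodes a lysophospholipase D of the Gde1 family, averaged 38.4 ± 3.98 FPKM with arachidonic acid and 27.3 ± 0.403 FPKM with vehicle (log2 fold change 0.47, adjusted p = 0.0074). Its relative Gdpd3 averaged 3.55 ± 1.27 FPKM with arachidonic acid and 2.37 ± 0.157 FPKM with vehicle (adjusted p = 0.17) and was called higher once arachidonic acid replicate 1 was removed (0.61 on the log2 scale, adjusted p = 0.0064). Plaat3, listed in the annotation under its older symbol Pla2g16 and coding for an acyltransferase that can make NAPE, fell to 16.3 ± 2.58 FPKM with arachidonic acid, against 23.2 ± 1.06 FPKM with vehicle (log2 fold change -0.49, SE 0.11, adjusted p = 0.015). That call was lost without vehicle replicate 1 and without arachidonic acid replicates 2 and 3 (adjusted p = 0.064, 0.052 and 0.057).

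Phospholipase C genes, whose products make the diacylglycerol that feeds 2-AG synthesis, numbered 3 higher and 1 lower of 6 tested among 10 in limma, beside 20.8% and 19.4% of all tested genes. Plcb3, the most abundant, fell to 153 ± 34.2 FPKM with arachidonic acid, against 270.1 ± 5.59 FPKM with vehicle (log2 fold change -0.83, SE 0.14, adjusted p = 0.0061). Plcd1 averaged 5.55 ± 0.810 FPKM with arachidonic acid and 2.92 ± 0.584 FPKM with vehicle (log2 fold change 0.74, adjusted p = 0.011). The call of Plcd3 was less firm. It had 20.8 ± 10.4 FPKM with arachidonic acid and 5.57 ± 0.135 FPKM with vehicle (log2 fold change 1.58, adjusted p = 0.020), and the call was lost when any library other than arachidonic acid replicate 1 was removed (adjusted p = 0.060 to 0.070), with no filter (0.056) and with limma-voom on recovered fragments (0.052). Plcg2 had 1.85 ± 0.566 FPKM with arachidonic acid and 0.859 ± 0.0953 FPKM with vehicle, and reached the filter only through the arachidonic acid libraries, so no p is given for it. Its call among the 3 was lost with no filter, with quantile normalization and when any library other than arachidonic acid replicate 1 was removed.

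All 10 other lipid and ester hydrolase genes were tested, and 4 were higher and 1 lower in limma, beside 20.8% and 19.4% of all tested genes. With arachidonic acid replicate 1 removed, 4 were higher and 3 lower, the added ones being Lypla1 and Ddhd2 (-0.45 and -0.33 on the log2 scale, limma adjusted p = 0.00094 and 0.0058), beside 59.8% of all tested genes called in either direction. The carboxylesterase gene Ces1f averaged 172 ± 26.0 FPKM with arachidonic acid and 30.2 ± 7.45 FPKM with vehicle (log2 fold change 2.49, SE 0.20, adjusted p = 0.00067). Ces1g averaged 7.02 ± 3.45 FPKM with arachidonic acid and 0.506 ± 0.0524 FPKM with vehicle (log2 fold change 2.32, 3.44 with a pseudocount of 0.1 and 3.65 with limma-voom). No p is given for it, since it reached the filter only through the arachidonic acid libraries. Ces1d, named after its values were seen, did not pass in limma (19.4 ± 5.58 FPKM with arachidonic acid and 19.0 ± 6.65 FPKM with vehicle, adjusted p = 0.90). These 3 are close paralogs, and how reads common to them were counted is unknown, which makes each value uncertain. Pnpla2, adipose triglyceride lipase, averaged 46.9 ± 5.50 FPKM with arachidonic acid and 29.4 ± 2.34 FPKM with vehicle, and Ddhd1, a phospholipase A1 gene, 9.17 ± 0.437 FPKM with arachidonic acid and 6.19 ± 0.157 FPKM with vehicle (log2 fold changes 0.65 and 0.50, adjusted p = 0.0049 for both). The lower gene, named after its values were seen, was Ppt1, a lysosomal thioesterase gene, at 23.7 ± 6.29 FPKM with arachidonic acid and 38.9 ± 0.440 FPKM with vehicle (adjusted p = 0.015), lost without any 1 vehicle library or without arachidonic acid replicate 3 (adjusted p = 0.052 to 0.059).

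Oxidation and intracellular transport are the other fates of these lipids. Ptgs2, cyclooxygenase 2, which also oxidizes 2-AG and anandamide, had 3.15, 6.81 and 11.1 FPKM with arachidonic acid and 0.245, 0.0341 and 0.0539 FPKM with vehicle, without overlap. Its log2 fold change was 2.72 (SE 0.37) on log2(FPKM + 1), 5.04 with a pseudocount of 0.1 and 6.19 with limma-voom on recovered fragments, so its size rests on the scale. It reached the filter only through the arachidonic acid libraries, and no p is given for it. Ptgs1, Alox12 and Alox15 were under the filter. Of the carrier genes 3 of 5 were tested and 2 were higher, beside 20.8% of all tested genes. Fabp1, the liver fatty acid-binding protein and also 1 of the enterocyte markers, averaged 2565 ± 1337 FPKM with arachidonic acid and 354 ± 51.2 FPKM with vehicle (log2 fold change 2.74, SE 0.33, limma adjusted p = 0.0021). Its highest library was arachidonic acid replicate 1, with 4094 FPKM at position 2.59, and without it the log2 fold change was 2.34. Fabp5 averaged 52.5 ± 10.5 FPKM with arachidonic acid and 28.9 ± 1.20 FPKM with vehicle (log2 fold change 0.82, SE 0.14, limma adjusted p = 0.0061). Scp2, a sterol carrier gene, did not pass (log2 fold change -0.16, limma adjusted p = 0.22), but was called lower once arachidonic acid replicate 1 was removed (-0.26 on the log2 scale, limma adjusted p = 0.0076).

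**Figure D4:**
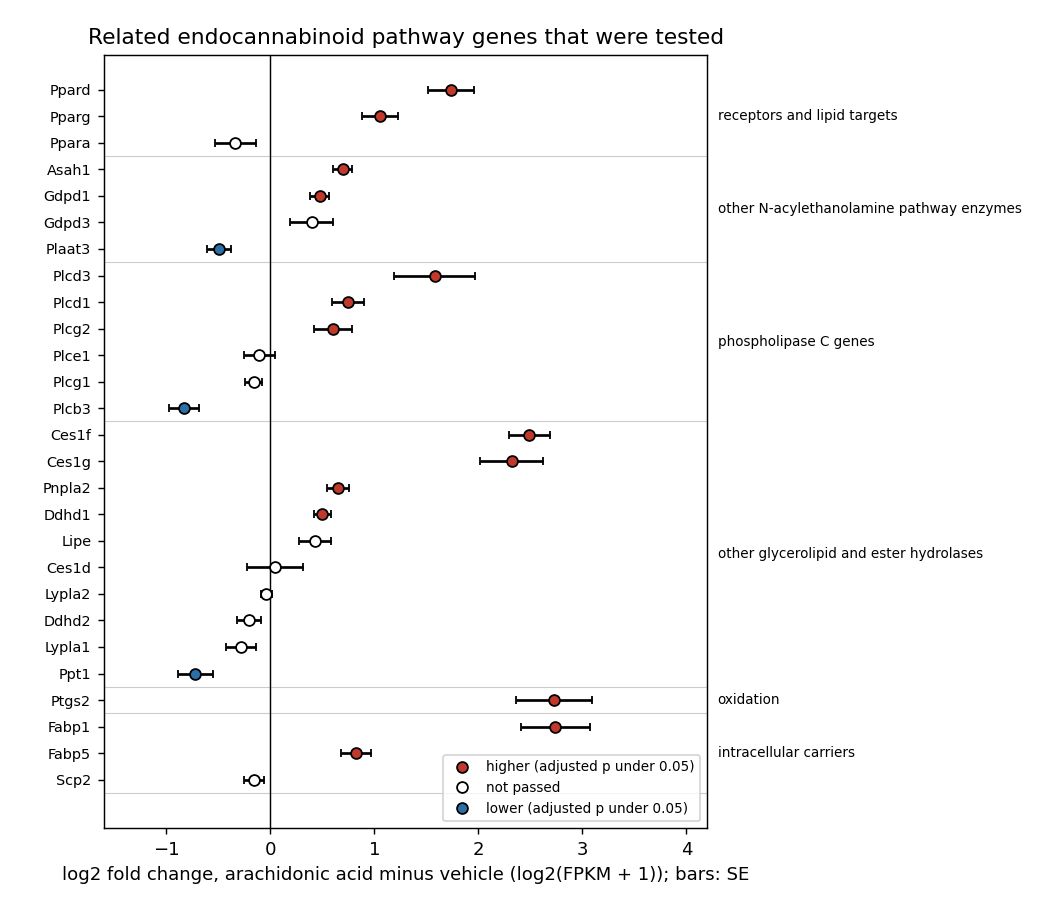
Log2 fold change, arachidonic acid minus vehicle on log2(FPKM + 1), of the tested receptor, synthesis, hydrolysis, oxidation and carrier genes outside the 10 enzyme genes, grouped by list, with bars for the standard error. Red and blue points passed the limma test as higher and lower. Among the red ones, Ptgs2, Ces1g and Plcg2 reached the filter only through the arachidonic acid libraries, so their colour is no support. Fabp1 and Ptgs2 lie at 2.74 and 2.72 on this scale, which understates the change of genes low in vehicle such as Ptgs2 and Ces1g.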

How the data were processed

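Total RNA of 6 mouse organoid libraries was sequenced. The deposited values are FPKM per gene, made by the authors, as inferred from the values. The tools featureCounts 1.5.0-p3, HISAT2 2.0.5 and StringTie 1.3.3b are named in the submitters' processing notes, with no role or order. Genome build, annotation and strand setting: not given in the sources used here.

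Symbols were found for 53274 of 53953 rows. FPKM multiplied by the rounded mean transcript length in GENCODE M21 gave whole multiples of a step specific to each library for 96.3% to 96.8% of the values under 100 fragments (within 0.1), from which depths and fragments were recovered, and counting error is only 1 part of the spread. The planned test had a form for counts and a form for FPKM, and the second was used. Genes averaging 1 FPKM or more were fitted with limma 3.58.1 (R 4.3.3, variance trend) on log2(FPKM + 1), which understates the ratio of low values. Tests are two-sided, with Benjamini-Hochberg adjustment across 12913 genes. The step was also run on simulated counts with the same dispersion for all genes and no outlying library. These libraries differ from that, so the run is no support for the calls made here. Figures were drawn with matplotlib 3.10.9 in Python 3.11.15.

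The 10 enzyme genes and all lists were chosen with earlier results of these data known. Named were the 10 genes, up to 4 tested genes of each list with the smallest p, Cnr1, Cnr2, Ppara, Pparg and Ptgs2, and the 5 genes most like Abhd6. Some marker genes are not reported here by name. Genes named outside that rule are said to be so, apart from those only listed as below the filter and those whose call appeared or was lost without arachidonic acid replicate 1. Alternatives were limma-voom on recovered fragments, TPM rescaling, quantile normalization, median-of-ratios scaling, a pseudocount of 0.1, a stricter filter at 5 FPKM, no filter, the replicate number as a block, each library left out in turn and, after seeing the data, levels by union exon length and counts without pathway genes under 1 FPKM in vehicle.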

Additional observations from a re-analysis of the deposited data

How the results depend on the processing

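The counts of enzyme genes were 4 higher in every alternative, and 1 lower in all but the fit with no filter on low values and the fits without a library, where it was 0 with no filter and 0 to 1 when a library was left out. That gene was Faah, and leaving out a library leaves fewer samples. Over all tested genes, leaving out a library gave 1712 to 3554 higher and 1245 to 4192 lower. For the related pathway genes it gave 14 to 19 higher and 5 to 14 lower. A pseudocount of 0.1 and limma-voom gave larger log2 fold changes for genes low in 1 group, by over 1.5 times for Ptgs2, Plcg2 (0.60 against 0.98 and 1.03) and Abhd15, and with limma-voom for Ces1g. The log2 fold change of Gde1 ranged from -0.16 (without arachidonic acid replicate 1) to 0.29 as libraries were left out, and that of Naaa from -0.073 to 0.016 (without vehicle replicate 2) and was 0.014 with TPM rescaling, none of them past the threshold. The cause was not tested. Of 580 values of named genes under the alternatives, 533 kept their direction and side of the threshold, 41 lost and 3 gained a call.

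The groups share replicate numbers, and with the replicate block 2263 genes were higher and 1998 lower, 15 and 8 of the related genes, and 4 and 1 of the enzyme genes. Plcg2 and Abhd8 (adjusted p = 0.065) lost their calls. Deviations from the group means correlated at -0.0811, 0.210 and -0.0623 for the same numbers over 12913 genes. For different numbers, arachidonic acid replicate 3 reached 0.19 with vehicle replicate 1, and arachidonic acid replicate 1 reached 0.149 with vehicle replicate 3. Deviations from a mean of 3 libraries depend on each other, so these correlations cannot decide whether the numbers pair the samples. The main fit does not use the numbers. Depth limits Mgll, with as few as 9 fragments.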

Other observations

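Abhd6, Abhd12 and Abhd4 belong to the ABHD family of alpha/beta-hydrolases, and 17 other genes of the family were followed. Of the 15 tested, limma called 3 higher and 5 lower at an adjusted p under 0.05, beside 20.8% and 19.4% of all tested genes, with a median log2 fold change of -0.01. With arachidonic acid replicate 1 removed, 4 were higher and 7 lower, beside 59.8% of all tested genes called in either direction. The added ones were Abhd11, higher (0.16 on the log2 scale, limma adjusted p = 0.031), and Abhd17b and Abhd17c, lower (-0.20 and -0.36, limma adjusted p = 0.043 and 0.00075). Abhd2, which has been described as a 2-AG hydrolase in sperm, averaged 47.8 ± 10.4 FPKM with arachidonic acid and 15.4 ± 1.37 FPKM with vehicle (SD, n = 3 each), at a log2 fold change of 1.55 (SE 0.16, limma adjusted p = 0.0013). Abhd5, the co-activator of adipose triglyceride lipase, averaged 20.6 ± 2.86 FPKM with arachidonic acid and 10.4 ± 0.473 FPKM with vehicle (log2 fold change 0.91, SE 0.11, limma adjusted p = 0.0022). Abhd16a, a phosphatidylserine lipase gene whose product works upstream of that of Abhd12, fell to 42.5 ± 3.21 FPKM with arachidonic acid, against 68.6 ± 5.38 FPKM with vehicle (log2 fold change -0.68, SE 0.09, limma adjusted p = 0.0025). Abhd14b fell to 18.3 ± 0.467 FPKM with arachidonic acid, against 26.3 ± 1.45 FPKM with vehicle (log2 fold change -0.50, limma adjusted p = 0.0032).

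The other 4 family genes called with all 6 libraries are named after their values were seen. Abhd14a and Abhd15 were lower, at log2 fold changes of -0.72 and -1.01, the second being -1.51 with a pseudocount of 0.1 and -1.55 with limma-voom. Abhd8 was higher at 0.39 (limma adjusted p = 0.037). That call did not hold with no filter, with quantile normalization, or when replicate 2 or 3 of either group was removed (adjusted p = 0.052 to 0.13). Abhd10 was lower at -0.58 (limma adjusted p = 0.030). That call did not hold with no filter, or when any library other than arachidonic acid replicate 1 was removed (adjusted p = 0.070 to 0.10).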
